A study of Homo sapiens with 49 samples.

Results

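The collagen genes are 43 of the 19774 genes that the array platform names with a single symbol, taken as every symbol made of COL, a number, A and a number. Each gene was read from 1 of its probe sets, the one with the highest mean over all 49 arrays, out of 111 collagen probe sets in all. Of the 43 genes, 19 exceeded a log2 level of 4 on 6 or more arrays, and the other 24 were at or below 4 on every array. The arrays measured Ishikawa cells, a human endometrial adenocarcinoma line of epithelial origin that carries estrogen receptor, kept for 72 h with ethinyl estradiol (EE), a synthetic estrogen used in oral contraception. EE was given at 0.1, 0.3, 1, 3, 10, 100 or 1000 pM, and the vehicle group received ethanol without EE; each group has 6 arrays except the 0.3 pM group, which has 7. All 8 groups shared 0.1% ethanol by volume and phenol red-free medium supplemented with CSS. Ishikawa is 1 line grown without stromal cells. Whether replicates came from separate cultures is not in the labels, so the p-values measure only how far these arrays spread, and that spread may be technical.

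Collagens are the main structural proteins of the extracellular matrix, built from alpha chains that wind into helical trimers in fixed chain combinations. Type I collagen joins chains of COL1A1 and COL1A2, while type III collagen is a trimer of COL3A1 chains alone. Types IV and VI build basement membranes and beaded microfilaments, and fibril-associated collagens such as types IX and XII decorate the fibrils. In the endometrium the fibrillar collagens lie mainly in the stroma, and the epithelium rests on a basement membrane of type IV collagen and laminin.

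The fibril-forming class had 5 of 11 genes above the limit, namely COL1A1, COL1A2, COL3A1, COL2A1 and COL27A1. Of type IV, 4 of 6 genes were above it (COL4A1, COL4A2, COL4A4 and COL4A5), and of type VI 2 of 5 (COL6A1 and COL6A2). The fibril-associated class had 4 of 10 (COL9A2, COL9A3, COL12A1 and COL21A1). COL8A2, of a short-chain network collagen, was 1 of 3 in the class of types VIII and X, and COL18A1, the source of endostatin, was 1 of 2 multiplexins. COL7A1, the collagen of anchoring fibrils, and COL26A1, a secreted collagen with an EMI domain, completed the list, while 0 of 3 transmembrane collagens were above the limit. Mean log2 levels over the 49 arrays ran from 4.02 for COL8A2, which was above 4 on 25 arrays, to 9.14 for COL12A1. COL6A2, with a mean of 4.37 and 42 arrays above 4, was the next nearest inside the limit. Nearest outside it were COL5A2, with a mean of 3.17 and a highest array of 3.63, and COL13A1, with a mean of 3.00 and a highest array of 3.69. The 24 genes outside spanned 1.45 to 3.69 over all arrays. They were COL4A3, COL4A6, COL5A1, COL5A2, COL5A3, COL6A3, COL6A5, COL6A6, COL8A1, COL9A1, COL10A1, COL11A1, COL11A2, COL13A1, COL14A1, COL15A1, COL16A1, COL19A1, COL20A1, COL22A1, COL23A1, COL24A1, COL25A1 and COL28A1. Probe sets differ in how strongly they bind, so levels are not ranked between genes.

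Promoter sequence is shown for the members whose direction or shared start site the results below turn on and that have an entry, credited to RefSeq on GRCh38.p14. Entries of 250 bases before and 50 after a start site were found for 31 of the 43 genes and 13 of the 19 above the limit. They hold none for COL1A2, COL1A1, COL3A1, COL6A1 or COL9A3. Capitals mark CCAAT (the CCAAT box) and GGGCGG (the GC box), searched on both strands; the matches shown do not overlap each other, and a GC box on the opposite strand reads CCGCCC. COL26A1 is shown over chr7:101362625-101362874 on the plus strand and COL12A1 over chr6:75206054-75206303 on the minus strand, each ending at the base before the start site of its entry. For COL12A1 that start site is the outermost one of the annotated gene, and for COL26A1 it lies 487 bases downstream of the outermost one, so the COL26A1 stretch lies inside the annotated gene. COL4A1 and COL4A2 start back to back, and the 126 bases between their start sites, chr13:110307158-110307283, are given on the plus strand.
COL26A1: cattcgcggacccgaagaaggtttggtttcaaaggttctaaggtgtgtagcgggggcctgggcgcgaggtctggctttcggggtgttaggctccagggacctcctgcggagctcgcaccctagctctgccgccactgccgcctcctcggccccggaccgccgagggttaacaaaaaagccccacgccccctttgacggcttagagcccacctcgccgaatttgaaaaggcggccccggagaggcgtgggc
COL12A1: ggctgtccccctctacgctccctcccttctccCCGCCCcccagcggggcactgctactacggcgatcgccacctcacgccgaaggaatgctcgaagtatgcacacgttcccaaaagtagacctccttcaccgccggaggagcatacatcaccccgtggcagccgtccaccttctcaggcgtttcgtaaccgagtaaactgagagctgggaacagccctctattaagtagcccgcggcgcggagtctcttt
COL4A1-COL4A2: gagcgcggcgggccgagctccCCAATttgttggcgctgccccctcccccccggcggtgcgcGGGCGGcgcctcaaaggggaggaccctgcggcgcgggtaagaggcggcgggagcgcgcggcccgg
The COL26A1 stretch held neither motif, the COL12A1 stretch held 1 GC box, and the stretch between COL4A1 and COL4A2 held 1 of each. Over all 43 collagen windows of 300 bases (some genes have more than 1 start site), 13 held CCAAT and 24 held GGGCGG, against 34.6% and 45% of the 35116 windows of all genes. The full palindromic estrogen response element (GGTCA, any 3 bases, then TGACC) was in 0 of the 43, against 0.057% of all windows. A match is a description of letters and shows no binding.

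GCRMA, the normalization used, makes arrays alike in distribution, so medians of 2.95 to 3.05 do not show the arrays to be of equal quality. In 4 of them, namely replicate 5 of vehicle, 2 of 0.3 pM, 6 of 3 pM and 6 of 1000 pM, the beta-actin control read 2.67 to 4.62 higher at its 3′ than at its 5′ probe set, against 0.80 to 2.06 in the other 45. Within their own groups these 4 arrays had the highest value of COL26A1, COL6A1, COL18A1, COL4A2, COL9A2, COL6A2 and COL7A1 and the lowest of COL12A1, COL4A1 and COL4A5 in all 4 groups. Counts and called changes without these 4 arrays are given with the results below. All 6 epithelial markers (EPCAM, KRT8, KRT18, KRT19, CDH1 and CLDN4) were above 4 on all 49 arrays, and 0 of 6 passed the test at 1000 pM. Of 9 stromal markers, 8 were above 4 on no array, among them DCN, LUM, PDGFRA and PDGFRB. The remaining stromal marker, the microfibril gene FBN1, averaged 6.74 ± 0.23 at 1000 pM and 7.14 ± 0.20 in vehicle (SD over 6 arrays), and changed by −0.39 ± 0.11 (SE) with a limma adjusted p of 0.0135 (−0.32 ± 0.11 without the 4 arrays, adjusted p = 0.0750). The summed stromal level spanned 7.07 to 7.48 at 1000 pM and 7.34 to 7.77 in vehicle (log2), and its part in the collagen results was not tested. None of the 4 endothelial and 4 immune markers was above 4 on any array. The progesterone receptor gene PGR, the classical estrogen target of this line, was higher by 5.13 ± 0.21 (SE) at 1000 pM than in vehicle.

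The first question was which collagen genes changed with concentration. At 1000 pM, 7 of the 19 genes passed the test (limma, Benjamini-Hochberg adjusted p under 0.05 over all 11075 genes tested), that is 36.8%, against 7.21% of all genes. COL9A3, COL1A2 and COL6A1 rose (3 of 19, where 2.88% of all genes rose), and COL26A1, COL1A1, COL3A1 and COL12A1 fell (4 of 19, where 4.33% of all genes fell). The 1000 pM arrays did not overlap with the vehicle arrays for 4 of the 19 genes, against 3.21% of all genes. At 100 pM 6 genes passed, 31.6% against a background of 10.1%, with COL1A2, COL9A3 and COL6A1 higher (background 3.85%) and COL1A1, COL26A1 and COL4A2 lower (background 6.27%). At that concentration 4 of the 19 genes did not overlap with vehicle, against 4.35% of all genes. At 10 pM 2 genes passed, 10.5% against 0.858%, namely COL9A3, higher where 0.506% of all genes were, and COL1A1, lower where 0.352% were. The arrays at 10 pM overlapped with vehicle for all 19 genes, against 0.885% of all genes that did not overlap. At 0.1, 0.3 and 1 pM 0 of 19 passed by limma, where the background was 0%, 0% and 0%. At these concentrations 0, 0 and 0 of the 19 had an unadjusted p under 0.05, against 4.22%, 2.6% and 7.97% of all genes. At 3 pM 0 of 19 passed against 0.153% of all genes. There 1 of the 19 had an unadjusted p under 0.05, against 3.22% of all genes. The median change of the 19 genes was −0.15 at 10 pM, −0.29 at 100 pM and −0.14 at 1000 pM on the log2 scale, against −0.01, −0.02 and −0.01 over all genes tested.

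**Figure D1:**
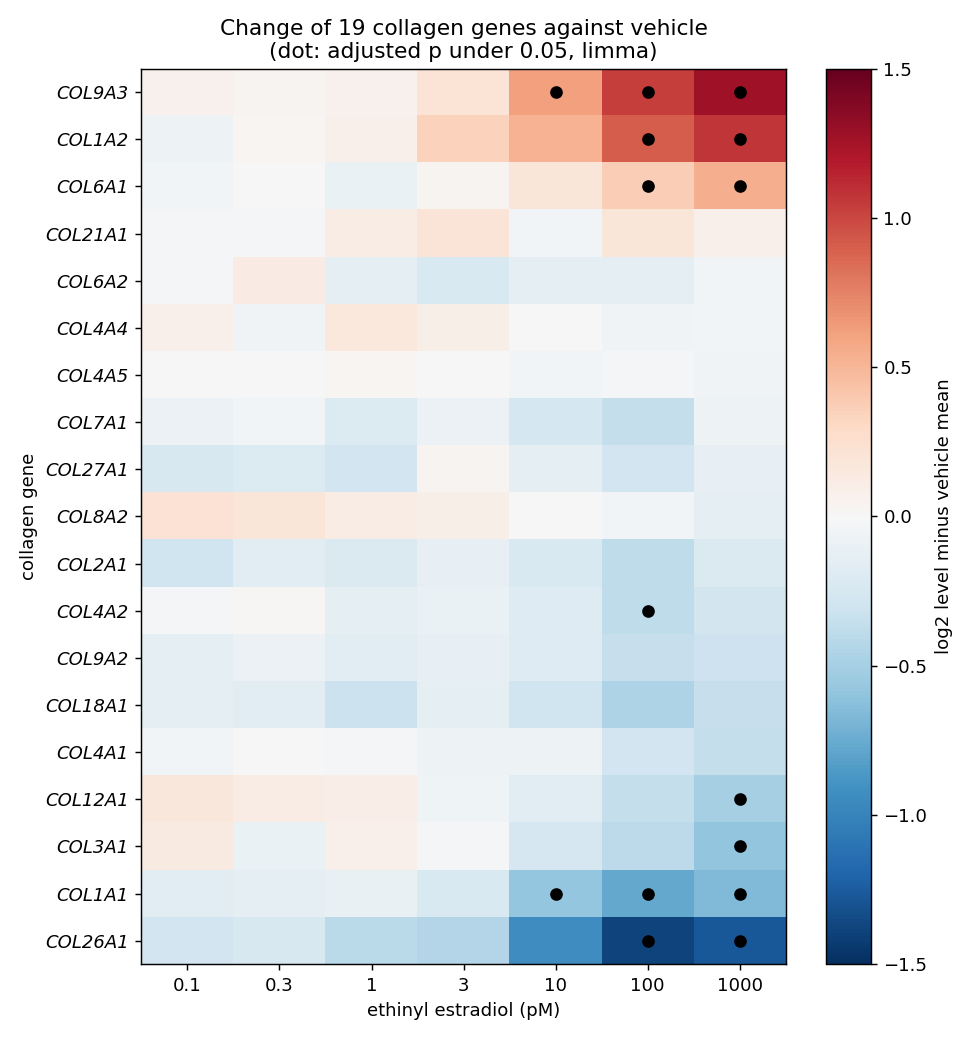
Change in log2 level of the 19 collagen genes (rows) at each ethinyl estradiol concentration in pM (columns) minus the vehicle mean, with red for higher and blue for lower. Dots mark adjusted p under 0.05; they fall at 10 pM and above, on 8 genes.

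Without the 4 arrays with a high beta-actin difference, 4, 8 and 7 collagen genes passed at 10, 100 and 1000 pM, against 1.39%, 11% and 8.81% of all genes. COL1A2, COL6A1 and COL12A1 then also passed at 10 pM, COL12A1, COL3A1 and COL4A1 also passed at 100 pM, and COL1A1 at 10 pM and COL4A2 at 100 pM no longer did. At 1000 pM the changes without the 4 arrays were 1.17 ± 0.16 for COL9A3, 1.13 ± 0.15 for COL1A2, 0.52 ± 0.06 for COL6A1, −0.56 ± 0.15 for COL1A1 and −0.64 ± 0.18 for COL3A1 (log2 ± SE; limma adjusted p from 6.45e-09 to 0.0162). At 100 pM they were 1.00 ± 0.15 for COL9A3, 0.97 ± 0.14 for COL1A2, 0.40 ± 0.06 for COL6A1, −0.67 ± 0.15 for COL1A1 and −1.13 ± 0.19 for COL26A1 (adjusted p from 1.16e-06 to 0.00124), and at 10 pM COL9A3 had 0.58 ± 0.15 (adjusted p = 0.0400). A moderated F test over all 8 groups called 6 of 19 genes, 31.6% against 6.99% of all genes. They were COL1A2, COL9A3, COL6A1, COL1A1, COL26A1 and COL12A1, with adjusted p between 1.8e-10 and 9.5e-04, and COL3A1 had 0.0522. Between neighbouring concentrations, 0 of 19 genes passed by limma in any of the 6 steps. The background was 0% from 0.1 to 0.3 pM and from 0.3 to 1 pM, 0.00903% from 1 to 3 pM, 0.153% from 3 to 10 pM, 0.984% from 10 to 100 pM and 0% from 100 to 1000 pM. Going up those 6 steps, 0, 1, 1, 2, 3 and 2 of the 19 genes had an unadjusted p under 0.05. The matching shares of all genes were 1.89%, 4.08%, 1.05%, 2.08%, 5.68% and 2.75%. From 10 to 100 pM the 3 collagen genes were COL9A3 (0.42 ± 0.15), COL1A2 (0.39 ± 0.14) and COL6A1 (0.18 ± 0.07, all log2 ± SE).

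The RNA levels of COL1A2 and COL1A1, the genes of type I collagen, moved in opposite directions. COL1A2, which encodes the alpha-2 chain, had lowest, median and highest levels of 7.12, 7.43 and 7.80 in vehicle, 7.08, 7.37 and 7.76 at 0.1 pM, 7.04, 7.56 and 7.81 at 0.3 pM and 7.26, 7.54 and 7.69 at 1 pM. They were 7.39, 7.84 and 8.22 at 3 pM, 7.68, 7.95 and 8.24 at 10 pM, 7.98, 8.32 and 8.72 at 100 pM and 8.23, 8.55 and 8.77 at 1000 pM. The groups up to 10 pM overlapped with vehicle, and all arrays at 100 and 1000 pM were above the highest vehicle array. The mean at 1000 pM was 8.53 ± 0.18, against 7.45 ± 0.27 in vehicle (SD, n = 6 each), which is 2.10-fold higher (log2 change 1.07 ± 0.14 SE; limma adjusted p = 1.12e-07; higher in 6 of 6 arrays). At 100 pM the change was 0.90 ± 0.14 (adjusted p = 6.18e-06), and at 10 pM 0.52 ± 0.14, which missed the threshold (adjusted p = 0.0596). A second COL1A2 probe set gave 8.28 ± 0.21 at 1000 pM and 7.00 ± 0.19 in vehicle, a change of 1.28 ± 0.13 (adjusted p = 2.36e-10 in a fit of all 22721 entering probe sets, of which 4.92% passed). The last COL1A2 probe set was above 4 on 2 arrays and was not tested.

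COL1A1, which encodes the alpha-1 chain, had lowest, median and highest levels of 8.31, 8.83 and 9.31 in vehicle, 8.17, 8.66 and 9.09 at 0.1 pM, 8.20, 8.73 and 8.99 at 0.3 pM and 8.28, 8.71 and 9.05 at 1 pM. They were 8.17, 8.60 and 8.84 at 3 pM, 7.89, 8.27 and 8.48 at 10 pM, 7.79, 8.07 and 8.22 at 100 pM and 7.87, 8.18 and 8.22 at 1000 pM. All arrays at 100 and 1000 pM were below the lowest vehicle array, and those at 10 pM overlapped with vehicle. The mean was 8.13 ± 0.14 at 1000 pM, against 8.79 ± 0.36 in vehicle, a log2 change of −0.66 ± 0.15 (limma adjusted p = 0.00226; lower in 6 of 6 arrays). It was −0.77 ± 0.15 at 100 pM (adjusted p = 3.91e-04) and −0.58 ± 0.15 at 10 pM (adjusted p = 0.0457). Without vehicle replicate 5, the highest vehicle array at 9.31, the change at 10 pM was −0.48 ± 0.15 and missed the threshold (adjusted p = 0.180), as it did without vehicle replicate 2, 3 or 4 or 10 pM replicate 3, 4, 5 or 6 (adjusted p from 0.0650 to 0.154). A second COL1A1 probe set averaged 4.56 ± 0.11 at 1000 pM and 5.10 ± 0.41 in vehicle, a change of −0.54 ± 0.14 (adjusted p = 0.00852). The other 3 COL1A1 probe sets did not enter: they were above 4 on 4, 0 and 0 arrays, with means of 3.75, 2.76 and 2.35 over all arrays.

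**Figure D2:**
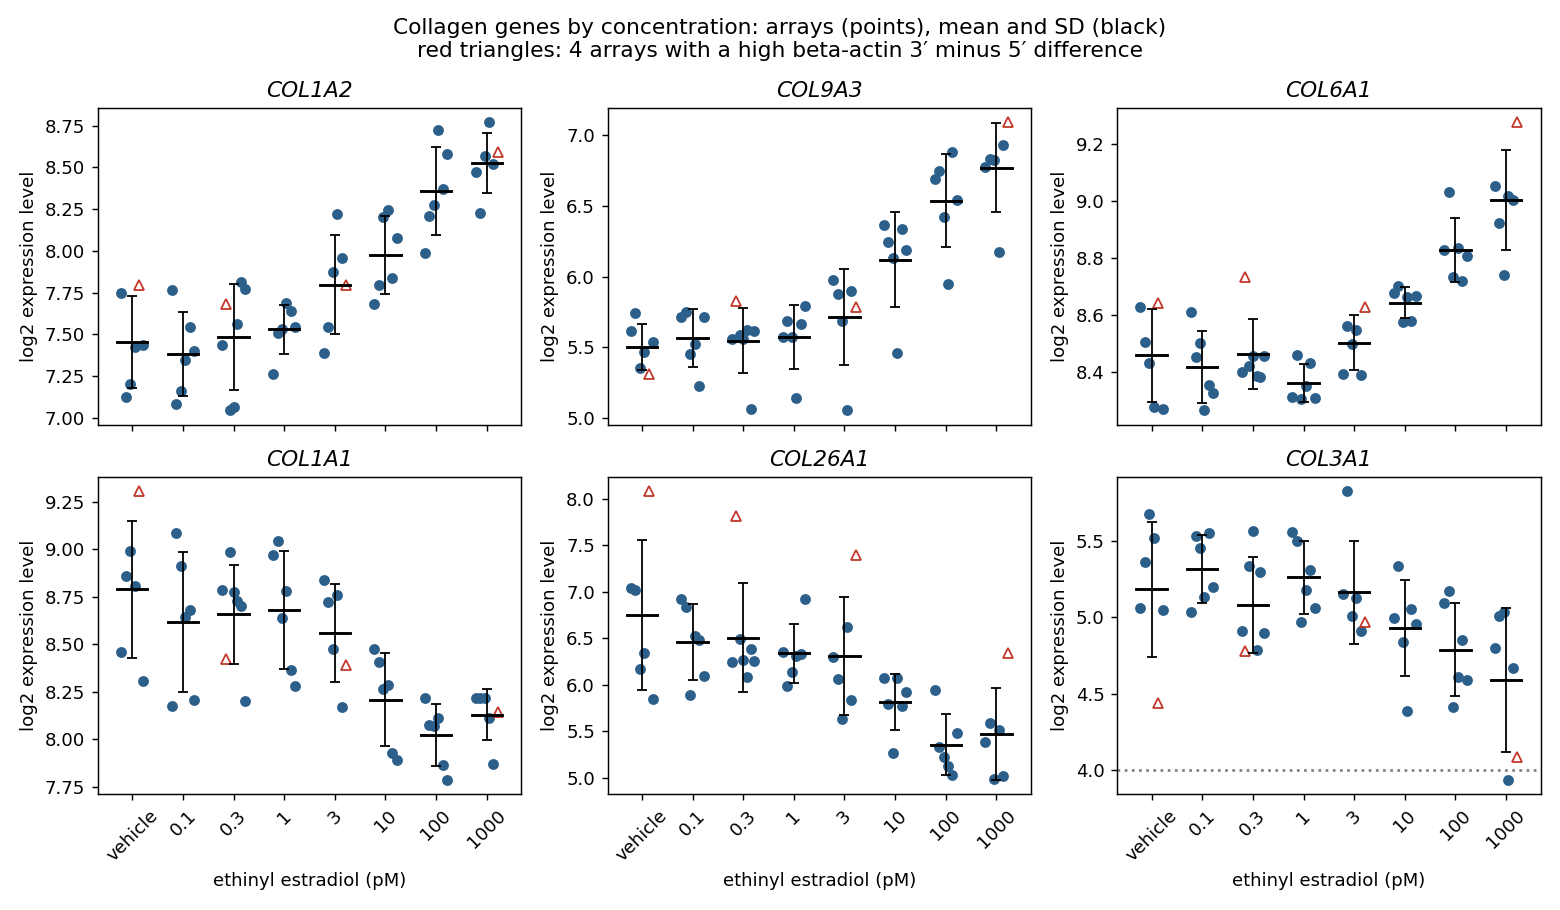
Log2 level (vertical axis) of 6 collagen genes on each array (points) by ethinyl estradiol concentration in pM, with the mean and SD in black and red triangles for the 4 arrays with a high beta-actin difference. COL1A2, COL9A3 and COL6A1 lie higher at 100 and 1000 pM, COL1A1, COL26A1 and COL3A1 lower, and the triangles of COL26A1 top their groups; the dotted line is log2 4.

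COL3A1, the gene of type III collagen, fell at 1000 pM. Its lowest, median and highest levels were 4.44, 5.21 and 5.68 in vehicle, 5.04, 5.33 and 5.55 at 0.1 pM, 4.78, 4.91 and 5.56 at 0.3 pM and 4.97, 5.24 and 5.56 at 1 pM. They were 4.91, 5.07 and 5.83 at 3 pM, 4.38, 4.98 and 5.34 at 10 pM, 4.41, 4.73 and 5.18 at 100 pM and 3.93, 4.73 and 5.03 at 1000 pM. Every group overlapped with vehicle. The change at 1000 pM was −0.60 ± 0.19, with means of 4.59 ± 0.47 at 1000 pM and 5.18 ± 0.44 in vehicle (limma adjusted p = 0.0414; below the vehicle mean in 6 of 6 arrays), and the change at 100 pM was −0.40 ± 0.19 (adjusted p = 0.155). The COL3A1 call at 1000 pM was lost without vehicle replicate 2, 3 or 4 or 1000 pM replicate 4, 5 or 6 (adjusted p from 0.0590 to 0.170). In the limma fit of all probe sets the same COL3A1 probe set had an adjusted p of 0.0574 at 1000 pM. A second one, above 4 on 12 arrays, had −0.45 ± 0.19 (adjusted p = 0.199). The rest of the 5 COL3A1 probe sets were above 4 on no array.

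COL26A1 had the most negative change of the 19 genes at both high concentrations. Its lowest, median and highest levels were 5.84, 6.68 and 8.08 in vehicle, 5.90, 6.50 and 6.93 at 0.1 pM, 6.09, 6.27 and 7.81 at 0.3 pM and 5.98, 6.32 and 6.92 at 1 pM. They were 5.63, 6.18 and 7.39 at 3 pM, 5.26, 5.86 and 6.07 at 10 pM, 5.03, 5.27 and 5.94 at 100 pM and 4.99, 5.45 and 6.34 at 1000 pM. The highest arrays of vehicle, 0.3 pM, 3 pM and 1000 pM were those with the high beta-actin difference, and every EE group overlapped with vehicle. The change was −1.28 ± 0.28 at 1000 pM, with means of 5.47 ± 0.49 at 1000 pM and 6.75 ± 0.81 in vehicle (limma adjusted p = 0.00144, below the vehicle mean in 6 of 6 arrays). At 100 pM the change was −1.39 ± 0.28 (adjusted p = 5.54e-04). At 10 pM it was −0.93 ± 0.28 and missed the threshold (adjusted p = 0.123). Without the 4 arrays the COL26A1 change at 1000 pM was −1.18 ± 0.20 (adjusted p = 1.79e-05), and without vehicle replicate 5 alone it was −1.01 ± 0.26 (adjusted p = 0.00887). The other COL26A1 probe set was above 4 on no array.

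The second question was how COL1A2 moved relative to COL1A1, COL3A1 and COL26A1. For each array the log2 level of the other gene was subtracted from that of COL1A2, and the group means of these differences were compared by an exact two-sided permutation test at each of the 7 concentrations, 21 tests in all, with Benjamini-Hochberg adjustment over the 21. The smallest p that 6 arrays against 6 can give is 0.00216. The difference itself mixes the binding of 2 probe sets, so only its change with concentration is read. Of the 21 tests, 8 passed, all at 10 pM or above. The pairs were chosen with earlier results of these data known, and all 21 tests share COL1A2 and the vehicle arrays. A pass therefore partly restates the single-gene changes above. The count has no share of other gene pairs beside it.

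COL1A2 minus COL1A1 averaged 0.40 ± 0.25 at 1000 pM and −1.33 ± 0.45 in vehicle (SD, n = 6 each), a change of 1.73 on the log2 scale (exact permutation adjusted p = 0.00909). The change was 1.67 at 100 pM (adjusted p = 0.00909), 1.10 at 10 pM (adjusted p = 0.0130) and 0.57 at 3 pM (adjusted p = 0.123) by the same exact test. All arrays at 100 and 1000 pM lay above all vehicle arrays. COL1A2 minus COL3A1 averaged 3.94 ± 0.62 at 1000 pM and 2.27 ± 0.68 in vehicle, a change of 1.67 (exact permutation adjusted p = 0.0130). It was 1.30 at 100 pM (adjusted p = 0.0227) and 0.77 at 10 pM (adjusted p = 0.121), and these groups overlapped with vehicle. COL1A2 minus COL26A1 averaged 3.05 ± 0.52 at 1000 pM and 0.71 ± 0.69 in vehicle, a change of 2.35, against 2.30 at 100 pM and 1.45 at 10 pM (exact permutation adjusted p = 0.00909 for each). The arrays at 10, 100 and 1000 pM all lay above the vehicle arrays. Without the 4 arrays the changes at 1000 pM were 1.69 against COL1A1, 1.77 against COL3A1 and 2.31 against COL26A1 (exact permutation adjusted p = 0.0208 for each). At 0.1, 0.3 and 1 pM none of the 9 differences passed, and they lay between −0.21 and 0.48.

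**Figure D3:**
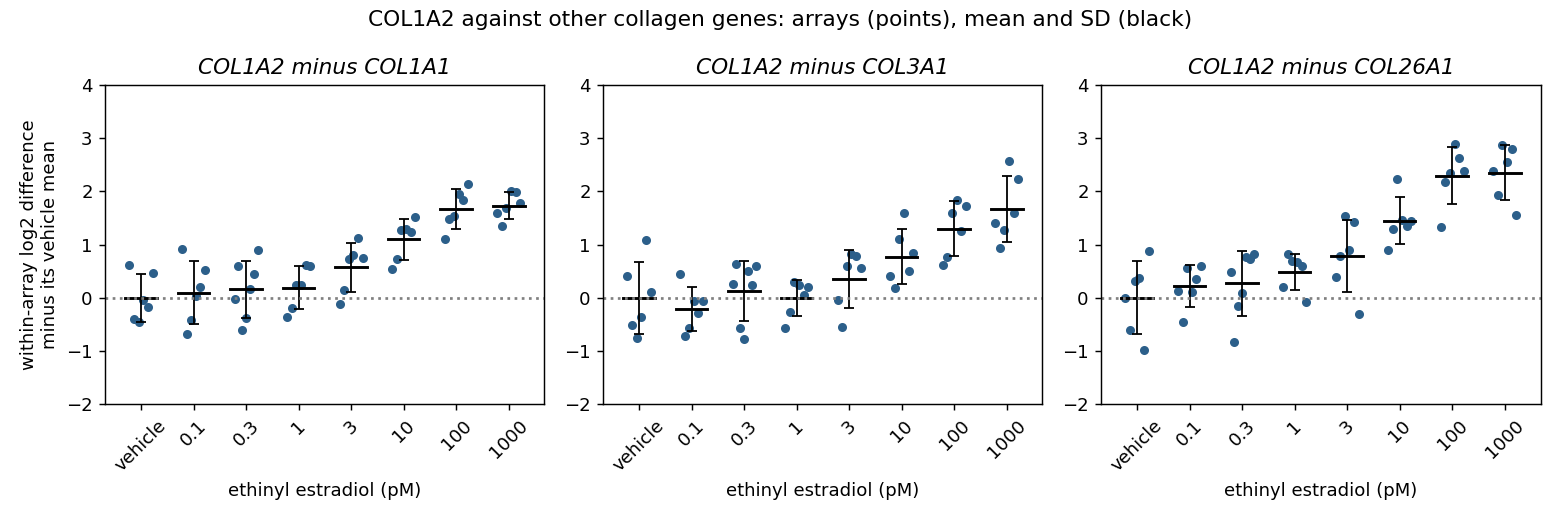
Within-array log2 difference between COL1A2 and COL1A1, COL3A1 or COL26A1 (panels), with the vehicle mean subtracted, by ethinyl estradiol concentration in pM. Points are arrays and black lines the mean and SD; the means at 1000 pM are 1.73, 1.67 and 2.35.

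Among the fibril-associated collagens, COL9A3 rose and COL12A1 fell. COL9A3 encodes the alpha-3 chain of type IX collagen, best known on the type II fibrils of cartilage. Its lowest, median and highest levels were 5.31, 5.50 and 5.74 in vehicle, 5.23, 5.62 and 5.75 at 0.1 pM, 5.07, 5.59 and 5.83 at 0.3 pM and 5.14, 5.62 and 5.79 at 1 pM. They were 5.05, 5.83 and 5.98 at 3 pM, 5.46, 6.21 and 6.36 at 10 pM, 5.95, 6.62 and 6.88 at 100 pM and 6.17, 6.83 and 7.09 at 1000 pM. The groups at 100 and 1000 pM did not overlap with vehicle, and at 10 pM 5 of 6 arrays were above the vehicle mean. The mean at 1000 pM was 6.77 ± 0.31, against 5.50 ± 0.16 in vehicle, which is 2.41-fold higher (log2 change 1.27 ± 0.15; limma adjusted p = 1.65e-08; 6 of 6 arrays). The change was 1.03 ± 0.15 at 100 pM (adjusted p = 2.31e-06) and 0.62 ± 0.15 at 10 pM (adjusted p = 0.0312). The COL9A3 call at 10 pM was lost without vehicle replicate 3, 4 or 5 or 10 pM replicate 1, 2, 3, 5 or 6 (limma adjusted p from 0.0567 to 0.0994). COL9A3 has only 1 of the collagen probe sets, so the COL9A3 result rests on 1 probe set. COL9A2, the alpha-2 chain of the same trimer, averaged 6.04 ± 0.23 at 1000 pM and 6.36 ± 0.28 in vehicle, a difference of −0.31 ± 0.12 that missed the threshold (adjusted p = 0.137; 95% interval −0.57 to −0.06). Without vehicle replicate 6 the COL9A2 difference was −0.39 and passed (limma adjusted p = 0.0470). Without vehicle replicate 5 it was −0.22 ± 0.12 and missed the threshold (adjusted p = 0.399). It also missed without the 4 arrays with a high beta-actin difference, at −0.29 ± 0.10 (adjusted p = 0.0714). The gene of the remaining chain, COL9A1, was at or below 4 on all arrays.

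COL12A1, whose product binds the surface of type I fibrils, had lowest, median and highest levels of 8.39, 9.40 and 9.47 in vehicle, 9.21, 9.42 and 9.55 at 0.1 pM, 8.70, 9.43 and 9.54 at 0.3 pM and 9.05, 9.40 and 9.53 at 1 pM. They were 8.61, 9.25 and 9.37 at 3 pM, 8.91, 9.06 and 9.22 at 10 pM, 8.65, 8.89 and 9.08 at 100 pM and 8.35, 8.78 and 8.88 at 1000 pM. In vehicle, 0.3 pM, 3 pM and 1000 pM the lowest array was the one with the high beta-actin difference, so the 1000 pM and vehicle groups overlapped. The change at 1000 pM was −0.50 ± 0.14, with means of 8.72 ± 0.19 at 1000 pM and 9.22 ± 0.42 in vehicle (limma adjusted p = 0.0122, below the vehicle mean in 6 of 6 arrays). Without those 4 arrays it was −0.60 ± 0.08 at 1000 pM (adjusted p = 1.19e-07) and −0.52 ± 0.08 at 100 pM (adjusted p = 1.03e-06), against −0.36 ± 0.14 with all arrays at 100 pM (adjusted p = 0.0775). A second COL12A1 probe set changed by −0.43 ± 0.13 at 1000 pM (adjusted p = 0.0338 in the fit of all probe sets), and another had −0.22 ± 0.30 (adjusted p = 0.768). COL21A1, another fibril-associated collagen gene, differed by 0.08 ± 0.14 (adjusted p = 0.807; 95% interval −0.21 to 0.37).

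Of the type VI genes, COL6A1 rose, with lowest, median and highest levels of 8.27, 8.47 and 8.64 in vehicle, 8.27, 8.40 and 8.61 at 0.1 pM, 8.38, 8.42 and 8.73 at 0.3 pM and 8.31, 8.33 and 8.46 at 1 pM. They were 8.39, 8.52 and 8.63 at 3 pM, 8.58, 8.66 and 8.70 at 10 pM, 8.72, 8.82 and 9.03 at 100 pM and 8.74, 9.01 and 9.28 at 1000 pM. The lowest arrays at 100 and 1000 pM were above the highest vehicle array. COL6A1 averaged 9.00 ± 0.17 at 1000 pM and 8.46 ± 0.16 in vehicle, a 1.46-fold rise (log2 change 0.54 ± 0.07; limma adjusted p = 8.9e-08; 6 of 6 arrays), and rose by 0.37 ± 0.07 at 100 pM (adjusted p = 2.63e-04). The other 7 of its 8 probe sets were above 4 on no array, so the COL6A1 result rests on 1 probe set. COL6A2, whose chain assembles with that of COL6A1, averaged 4.41 ± 0.44 at 1000 pM and 4.44 ± 0.34 in vehicle, a difference of −0.04 ± 0.19 (adjusted p = 0.933; 95% interval −0.42 to 0.34). COL6A3, the gene of the chain that completes the common type VI trimer, was at or below 4 on all arrays.

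The type IV genes are arranged in head-to-head pairs, with 126 bases between the start sites of COL4A1 and COL4A2, 418 between COL4A4 and COL4A3 and 379 between COL4A6 and COL4A5 by the RefSeq promoter entries. Counted between the outermost ends of the annotated genes, the COL4A4 and COL4A3 gap is 135 bases and the other gaps are the same. COL4A2 fell by 0.38 ± 0.13 at 100 pM, with means of 6.28 ± 0.19 at 100 pM and 6.67 ± 0.39 in vehicle (limma adjusted p = 0.0451), and missed the threshold without vehicle replicate 5, where it read 7.31 (change −0.26, adjusted p = 0.232), and without vehicle replicate 1 or 2 or 100 pM replicate 3, 4, 5 or 6 (adjusted p from 0.0639 to 0.0978). At 1000 pM COL4A2 differed by −0.27 ± 0.13 (limma adjusted p = 0.231), and by −0.15 without vehicle replicate 5 (adjusted p = 0.644). A second COL4A2 probe set, above 4 on 8 arrays, differed by −0.05 ± 0.15 at 1000 pM (adjusted p = 0.898 in the fit of all probe sets). COL4A1 averaged 6.54 ± 0.23 at 1000 pM and 6.90 ± 0.22 in vehicle, a difference of −0.36 ± 0.14 (limma adjusted p = 0.110, below the vehicle mean in 6 of 6 arrays). Without vehicle replicate 5 the COL4A1 difference was −0.43 (adjusted p = 0.0487). The other COL4A1 probe set was above 4 on 2 arrays and was not tested. In the 4 arrays with the high beta-actin difference COL4A1 was the lowest and COL4A2 the highest of its group. COL4A4 and COL4A5, genes of chains found in specialised basement membranes such as that of the kidney glomerulus, differed by −0.04 ± 0.10 and −0.05 ± 0.10 at 1000 pM (95% intervals −0.25 to 0.16 and −0.25 to 0.14). Their head-to-head partners COL4A3 and COL4A6 were at or below 4 on all arrays.

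The remaining genes above the limit did not pass at any concentration. At 1000 pM COL18A1 differed by −0.34 ± 0.18 (adjusted p = 0.315), and by −0.18 without vehicle replicate 5 (adjusted p = 0.735). COL2A1, the cartilage fibril chain, differed by −0.22 ± 0.25 (adjusted p = 0.670), COL27A1, a fibrillar collagen, by −0.13 ± 0.15 (adjusted p = 0.692) and COL7A1 by −0.07 ± 0.12 (adjusted p = 0.793). COL7A1 came nearest to the threshold at 100 pM, with −0.36 ± 0.12 (adjusted p = 0.0520). COL8A2 was at or below 4 on all arrays at 1000 pM and on some in vehicle, with a difference of −0.14 ± 0.13 (adjusted p = 0.608). With no filter on level, 6 of the 43 collagen genes passed at 1000 pM, against 3.7% of 19774 genes, and 0 of the 24 low ones did by limma.

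**Figure D4:**
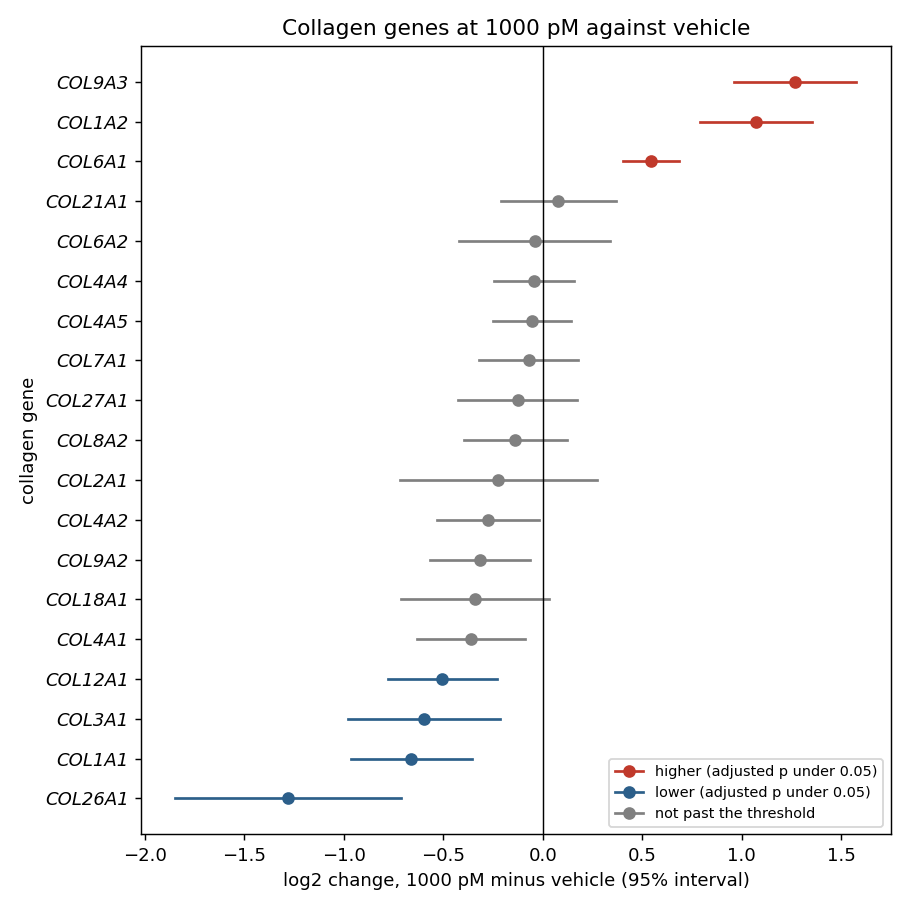
Log2 change of the 19 collagen genes at 1000 pM minus vehicle (points) with 95% intervals from limma (lines), red and blue where the adjusted p was under 0.05. The intervals of COL9A3, COL1A2 and COL6A1 lie above 0 and those of COL26A1, COL1A1, COL3A1 and COL12A1 below 0. The other 12 genes missed the threshold and are grey, though the intervals of COL4A1, COL4A2 and COL9A2 among them also lie below 0.

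Among genes that modify, secrete or process collagen chains, P3H2 fell at 10, 100 and 1000 pM. Of 30 on the list, 28 were on the platform and 23 were above the limit. At 1000 pM 0 of 23 rose and 1 fell, and at 100 pM 0 rose and 3 fell, which is 4.35% and 13% called, against 7.21% and 10.1% of all genes. The medians of the 23 changes were −0.13 at 1000 pM and −0.20 at 100 pM. P3H2, a prolyl 3-hydroxylase that acts on type IV collagen, averaged 5.31 ± 0.20 at 1000 pM and 6.25 ± 0.14 in vehicle, a change of −0.95 ± 0.12 (limma adjusted p = 6.3e-08). At 100 pM P3H2 changed by −0.90 ± 0.12 (adjusted p = 2.61e-07), the collagen chaperone SERPINH1 by −0.29 ± 0.09 (adjusted p = 0.0333) and PCOLCE, an enhancer of procollagen cleavage, by −0.37 ± 0.12 (adjusted p = 0.0333). At 10 pM P3H2 changed by −0.46 ± 0.12 (adjusted p = 0.0494). Without the 4 arrays with a high beta-actin difference, P3H2 had −0.92 ± 0.13 at 1000 pM and −0.86 ± 0.12 at 100 pM and SERPINH1 had −0.29 ± 0.08 at 100 pM, all past the threshold, while P3H2 at 10 pM (adjusted p = 0.0746) and PCOLCE at 100 pM (−0.26 ± 0.09, adjusted p = 0.0615) were not. The prolyl 4-hydroxylase gene P4HA1 differed by 0.08 ± 0.08 at 1000 pM (adjusted p = 0.601), and the cross-linking enzyme gene LOX by −0.21 ± 0.15 (adjusted p = 0.476).

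Of 10 genes of collagen breakdown, 3 were above the limit. TIMP2, an inhibitor of matrix metalloproteinases, fell by 0.38 ± 0.12 at 1000 pM (limma adjusted p = 0.0290) and by 0.45 ± 0.12 at 100 pM (adjusted p = 0.00815). MMP14, a membrane-bound collagenase, changed by −0.52 ± 0.17 at 100 pM (adjusted p = 0.0459) and differed by −0.29 ± 0.17 at 1000 pM (adjusted p = 0.365), and TIMP1 differed by −0.32 ± 0.12 at 1000 pM (adjusted p = 0.0932). Of 10 collagen receptor genes 4 were above the limit. The receptor tyrosine kinase gene DDR1 fell by 0.36 ± 0.09 at 100 pM (adjusted p = 0.00792) and differed by −0.23 ± 0.09 at 1000 pM (adjusted p = 0.147), and the integrin genes ITGA2 and ITGB1 differed by 0.01 ± 0.13 and −0.05 ± 0.05 at 1000 pM. Without the same 4 arrays DDR1 had −0.31 ± 0.06 (adjusted p = 6.48e-04) and TIMP2 −0.40 ± 0.12 (adjusted p = 0.0187) at 100 pM, while MMP14 at 100 pM (−0.31 ± 0.13, adjusted p = 0.108) and TIMP2 at 1000 pM (−0.36 ± 0.12, adjusted p = 0.0580) missed the threshold.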

How the data were processed

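RNA of Ishikawa cells was measured on 49 Affymetrix HT HG-U133 Plus PM arrays in 8 groups, set by the concentration in the labels. The deposited values are log2 levels, which the authors made with GCRMA and Partek, per the submitters' processing notes; versions are not given in the sources used here. GCRMA makes arrays alike in distribution and leaves low signals compressed, so small changes of dim probe sets may be understated. Probe sets were named by the platform annotation: of 54715, 40920 had 1 symbol, 864 several and 12931 none. The arrays' number limits the precision. No pair of arrays was identical, with correlations of 0.964 to 0.997.

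Probe sets entered if above log2 4 on 6 or more arrays (22721), and each gene was read from the one with the highest mean (11075 genes). A model of group means over all 49 arrays was fitted with limma 3.58.1 in R 4.3.3 (moderated by eBayes with an intensity trend), with Benjamini-Hochberg adjustment over all genes and a threshold of 0.05. On simulated data for 1000 pM against vehicle over 11075 genes, 50 genes were changed at each fold. Recovered were 44% of those changed 1.25-fold, 78% of those changed 1.5-fold and 100% of those changed 2-fold or 4-fold. Of 169 calls in the simulation, 4.73% were false. The data themselves gave 799 calls at 1000 pM, so these shares need not hold for them. Figures were drawn with Python 3.11.15 and matplotlib 3.10.9.

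The members, the pairs compared with COL1A2, the lists and the tests were chosen with earlier results of these data known. The genes named are COL1A2, COL1A1, COL3A1 and COL26A1, every collagen gene called against vehicle and every one above the limit, the 2 nearest to it on each side, and called members of the lists; list members that did not pass are examples chosen after their values were seen. Alternatives concerned the filter, limma's prior, quantile normalization, array weights, the choice of probe set, the threshold, which arrays were fitted, and a block on the replicate number. Arrays of equal number deviated together, with all 6 correlations above 0.1, between 3 and 1 pM (0.206 at least), between 10 and 3 pM (0.220) and between 100 and 10 pM (0.271). No comparison with vehicle met that limit. The steps from 0.1 to 0.3 pM, 0.3 to 1 pM and 100 to 1000 pM (−0.031 to 0.503) also missed it. Missing the limit does not show that arrays were unpaired. No label names a batch, so the pairing found rests on the values alone.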

Additional observations from a re-analysis of the deposited data

Results flagged for a closer look

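In 64 tests of single arrays (8 collagen genes called against vehicle, 8 groups), 15 values stood apart from the rest of their group by Dixon's criterion, which chance alone meets in about 1 in 20 groups. For COL9A3, replicate 4 was low in 4 groups: it read 5.14 at 1 pM (others 5.57 to 5.79), 5.05 at 3 pM (5.69 to 5.98), 5.46 at 10 pM (6.14 to 6.36) and 6.17 at 1000 pM (6.77 to 7.09). At 100 pM replicate 4 was also the lowest COL9A3 array, at 5.95 (others 6.42 to 6.88), a gap that did not meet the criterion. At 0.3 pM replicate 6 was the low COL9A3 array, at 5.07 (others 5.56 to 5.83). For COL12A1, 3 of the 4 arrays with a large gap between the beta-actin control probe sets were low: 8.70 in 0.3 pM replicate 2 (others 9.29 to 9.54), 8.61 in 3 pM replicate 6 (9.16 to 9.37) and 8.39 in vehicle replicate 5 (9.21 to 9.47).

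The same 0.3 pM replicate 2 was high for COL26A1 at 7.81 (others 6.09 to 6.50), for COL4A2 at 7.12 (6.55 to 6.66) and for COL6A1 at 8.73 (8.38 to 8.46). COL26A1 was low in 10 pM replicate 3 at 5.26 (others 5.77 to 6.07), COL1A1 was low in 1000 pM replicate 5 at 7.87 (8.11 to 8.22), COL3A1 was high in 3 pM replicate 2 at 5.83 (4.91 to 5.15), and COL6A1 was high in 100 pM replicate 2 at 9.03 (8.72 to 8.84). The causes were not tested.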

How the results depend on the processing

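Of 15 called changes of single collagen genes, 9 kept their call under all alternatives, leaving out of single arrays included: COL1A2, COL9A3, COL6A1 and COL1A1 at 100 and 1000 pM and COL26A1 at 100 pM. The count at 10 pM (2) was 1 with no filter or no trend, 4 with array weights or without the 4 arrays with a high beta-actin difference, and 0 with only the 2 groups compared or at a threshold of 0.01. The count at 1000 pM (7) was 4 with only the 2 groups compared. That fit took its spread from fewer arrays, and each of its groups holds an array with a high beta-actin difference. What lowered the count was not tested. Leaving out each array in turn gave counts of 0 to 3 at 10 pM, 5 to 9 at 100 pM, 6 to 8 at 1000 pM, 6 to 7 by the F test and 0 in the steps. At 10 pM the count moved without vehicle replicate 2, 3, 4 or 5 or 10 pM replicate 2, 3, 4, 5 or 6. Without vehicle replicate 5, 1, 6 and 8 collagen genes passed at 10, 100 and 1000 pM, against 0.677%, 6.41% and 6.79% of all genes. Apart from this fit and the one without the 4 arrays, the alternative counts in this paragraph have no share of all genes beside them. They therefore do not show whether the collagen genes moved apart from the background. The calls of COL3A1 at 1000 pM, COL4A2 at 100 pM, COL1A1 at 10 pM and COL9A3 at 10 pM were lost with only the 2 groups (adjusted p = 0.324, 0.248, 0.350 and 0.183), among other alternatives, and the single arrays that end them are named with each gene above. COL12A1 at 1000 pM lost it with the mean of probe sets, only the 2 groups or the threshold of 0.01, and COL26A1 at 1000 pM with only the 2 groups (adjusted p = 0.0659).

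The COL1A2 differences at 1000 pM ran from 1.64 to 1.86 against COL1A1, 1.49 to 1.88 against COL3A1 and 2.15 to 2.53 against COL26A1 when single arrays were left out. With the replicate block they were 1.73, 1.67 and 2.35 and each missed the threshold (adjusted p = 0.0938 over the 21 tests, where 6 pairs can give no unadjusted p below 0.0313). With the block in the fit over all groups, 3, 7 and 8 collagen genes passed at 10, 100 and 1000 pM and 0 in the steps. COL4A1 at 1000 pM was among them (limma adjusted p = 0.0259), and all called single-gene changes kept their call. The share of all genes that passed with the block is not given here, so these counts have no background beside them. Changes at 1000 pM that had not passed turned positive as follows. With array weights COL27A1 had 0.030, COL2A1 0.12 and COL6A2 0.023, and without the 4 arrays COL27A1 had 0.0026, COL2A1 0.066 and COL7A1 0.023. Leaving out single arrays, COL27A1 ran from −0.20 to 0.021, COL2A1 from −0.43 to 0.036, COL7A1 from −0.14 to 0.065 (each highest without vehicle replicate 5), COL6A2 from −0.14 to 0.063 (highest without 1000 pM replicate 4) and COL4A4 from −0.081 to 0.024 (highest without 1000 pM replicate 1). The causes were not tested.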
